A study of Mus musculus with 2 samples.

Results

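Ribosomal protein genes and keratin genes were looked up among the genes listed beside peaks of cJUN, a DNA-binding subunit of the transcription factor AP-1, in the embryonic mouse intestine. A gene was taken when its listed name was Rps or Rpl plus digits (trailing letters or a pseudogene suffix allowed, ribosomal S6 kinases left out), Rplp0 to Rplp2, Krt plus digits, or any name starting with Krtap. This found 11 of 2963 listed names, all of them ribosomal protein names, at 14 of 2741 peaks. No keratin and no keratin-associated protein gene was listed. The names were chosen by their symbol and by being listed at a peak in this same list, so the counts below are a description, and no test was made of them.

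The peaks came from chromatin immunoprecipitation and sequencing of wild-type C57BL/6 whole intestines at E14.5, from 1 litter of 8 embryos, kept in transwell culture for 24 h before crosslinking. The 2 libraries were 1 cJUN immunoprecipitate, made with a polyclonal rabbit antibody, and 1 input of sheared DNA that had not met the antibody, both of that same tissue. There is no replicate, mutant or untreated library, so no value has a replicate error. The whole organ mixes epithelium, mesenchyme, muscle, nerve and blood cells, and a peak list holds no expression by which the tissue could be checked.

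Ribosomal proteins are the structural proteins of the cytoplasmic ribosome. Rps genes encode those of the small subunit, Rpl genes those of the large subunit, and Rplp genes the acidic proteins of the large subunit stalk. Their genes are spread over the genome, and most are active in all cells. They have given rise to many processed pseudogenes, which are reverse-transcribed copies without the parent gene's promoter. Keratins form the intermediate filaments of epithelial cells as pairs of an acidic type I and a basic type II protein, whose genes stand in tandem arrays. Krt8, Krt18, Krt19 and Krt20 are the keratins of simple epithelium such as the gut lining. Keratin-associated proteins (Krtap genes) crosslink keratin filaments in the hair shaft and also lie in tandem arrays. AP-1 is known to act on keratin genes in skin.

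Peaks listed 5 of 88 protein-coding ribosomal protein genes (5.68%, exact 95% interval 1.87 to 12.8), while 12.5% of all 21887 protein-coding genes were listed. All 5 belong to the small subunit, and they are Rps3a1, Rps12, Rps15a, Rps23 and Rps29. That is 5 of 32 Rps genes (15.6%, 5.28 to 32.8), 0 of 53 Rpl genes (0 to 6.72) and 0 of 3 Rplp genes (0 to 70.8). The 88 are all protein-coding genes whose symbol fits the rule. Among them are related copies such as Rpl3l, Rpl10l, Rps27rt and Rpl34-ps1, none of them listed. Rpsa, the laminin receptor and small subunit gene whose name has no digit, was not listed either. The intervals cover counting error only and treat genes as independent of each other.

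The peak nearest to any of these genes was at Rps3a1, at chromosome 3 from 85951974 to 85952159 (mm9, as are all peak positions). It lay 5.44 kb upstream of the start of the gene. Its fold over background was 22.11 and its score 61.4. Fold and score are the authors' values, and a score is the −log10 of a peak p-value multiplied by 10. Lrba, a gene of vesicle traffic, was listed at the same peak from the other side, 76.5 kb away. This peak had the highest fold of the 14, at percentile 91.4 of the list with tied folds at their middle rank. Its score ranked 1337 of 2741 and was close to the list's median of 61.3.

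The other peaks of protein-coding members were far from the gene. Rps29 was listed at a pair of peaks on chromosome 12, from 69849069 to 69849225 and from 70160789 to 70160930, at 411 and 99.3 kb from its start. Their folds were 18.42 and 14.74 and their scores 67.49 and 60.15. No second gene was listed at either, and the 2 peaks were 312 kb apart with no other peak closer. The first of them had the highest score of the 6 peaks at protein-coding members, ranking 734 in the list.

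Rps23 was listed 251 kb from a peak at chromosome 13 from 91313337 to 91313513 (fold 18.42, score 63.17). Atg10, an autophagy gene, was the nearer gene of that peak at 50.2 kb. Rps12 was listed 312 kb from a peak at chromosome 10 from 23194875 to 23195018 (fold 18.42, score 59.7). The nearer gene there was Eya4, which encodes a transcriptional coactivator and phosphatase, at 125 kb. Rps15a was listed 280 kb from a peak at chromosome 7 from 124979554 to 124979702, with the lowest fold and score of the coding members, 12.79 and 54.12. Xylt1, a gene of proteoglycan synthesis, lay on the other side at 455 kb. In 5 of the 6 listings the peak was downstream of the start of the ribosomal protein gene, and Rps3a1 was the exception.

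The remaining 6 names are pseudogenes in the gene table, listed at 8 peaks. All 4 Rpl names of the list, Rpl13-ps3, Rpl13a-ps1, Rpl27-ps3 and Rpl28-ps4, are among them, beside Rps3a2 and Rps18-ps3. The table places Rps18-ps3 on a different chromosome from the peak list, so which copy the authors' annotation meant is not certain. Among pseudogenes of the gene table, 312 carry a ribosomal protein name and 8 of them were listed (2.56%, 1.11 to 4.99), against 0.688% of all 10609 pseudogenes. These 8 genes are the 6 members, Rps18-ps3 included, and Rpl15-ps6 and Rps4l-ps. The peak list gives the last pair as Gm10020 and Gm6816, outside the rule. How many of these pseudogenes the authors' annotation held is not given in the sources used here, so the shares of pseudogenes cannot be read as those of coding genes can. Of 10 listed names with a -ps suffix, 5 were ribosomal protein names by the rule.

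Rpl13a-ps1 had the highest score of all members. Its peak, of 83 bp at chromosome 19 from 50385106 to 50385189, scored 106.86 (rank 104) with a fold of 6.06, the lowest of the 14. It lay 280 kb upstream of the pseudogene and 368 kb from Sorcs1, a sorting receptor gene, and the next peak on the chromosome was 2733 kb away. Rpl13-ps3 had 2 peaks on chromosome 14. The one from 59277517 to 59277625 scored 99.92 with a fold of 7.37, and the one from 59210779 to 59210933 scored 57.34 with a fold of 14.74. Both lay in the same interval of 821 kb between the pseudogene and Fgf9, a growth factor gene, at 235 and 301 kb from the pseudogene. The peaks with scores of 99.92 and 106.86 were the only 2 of the 14 with a fold under 10, a range that holds 331 of the 2741 peaks.

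Rpl28-ps4 was listed at 2 peaks on chromosome 6, 316 and 426 kb away, with folds of 17.59 and 12.1 and scores of 61.93 and 56.7. Zfp637, a zinc finger gene, was nearer to both. Rps3a2 was listed 206 kb from a peak on chromosome 14 (fold 14.74, score 57.34), shared with Tdrd3 at 501 kb. Rps18-ps3 had the lowest score of the members, 53.59, with a fold of 15.29, at 325 kb, and the guanine nucleotide exchange factor gene Arhgef28 was nearer at 121 kb. Rpl27-ps3 was the closest pseudogene, 40.7 kb from a peak on chromosome 18 (fold 14.74, score 63.37), shared with the chromatin gene Epc1 at 118 kb.

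Across the 14 peaks, scores were near the middle of the list and distances were long. The median score was 60.8, against 61.3 for the list, and 7 of 14 scored above the list's median. The list's lower quartile was 57.34, and its lowest score lay only a little below that. A score near the middle is therefore not far above the weakest peaks of the list. The median fold was 14.74, against 16.75. Folds recur in this list, with 653 peaks at 18.42 and 438 at 14.74, and 7 of the 14 member peaks had one of those values. The median distance to the member was 280 kb, against 144 kb over all 4694 listings, and 11 of 14 were over 200 kb. At 9 of the 14 peaks (64.3%) the member was the nearest listed gene, where 56.1% of all listings named the nearest gene of their peak. In 2 of the 9, both at Rps29, no second gene was listed, so the member was nearest by construction. Peaks without a pair of genes were not particular to Rps29, since 2057 of all 2741 peaks listed a pair.

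**Figure D1:**
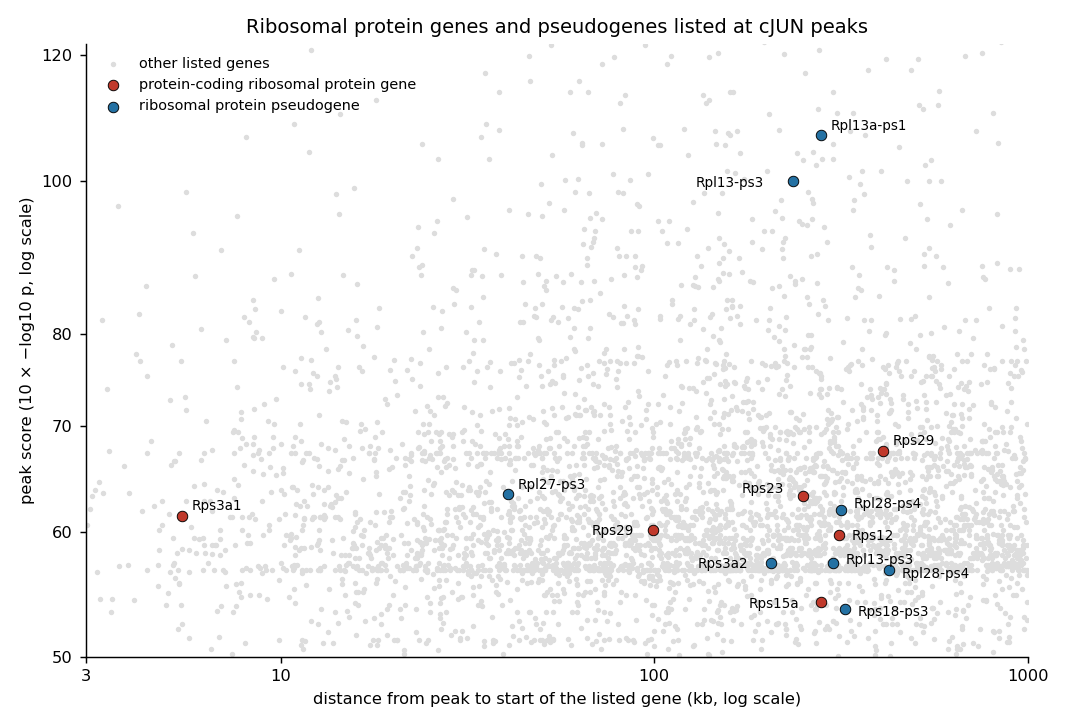
Score of each peak (10 times the −log10 p, log scale) against its distance to the listed gene (kb, log scale), with the axes limited to the region of the members. Red points are protein-coding ribosomal protein genes, blue points ribosomal protein pseudogenes and grey points other listed genes. Rps3a1 stands alone near its peak at 5.44 kb, and 11 of the 14 points are beyond 200 kb.

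Where strand was known for both genes of a peak, the 2 genes lay on either side of it at 1234 of 1243 peaks (99.3%), so a listed pair marks the interval between neighbouring start sites. The 12 member peaks with a second gene lay in intervals of 82.0 to 821 kb. Their median was 627 kb, against 280 kb over all 2057 peaks with a pair, and 10 of 12 were above the 280 kb. For the 4 peaks at protein-coding members the median was 369 kb, with 3 above the 280 kb. For the 8 at pseudogenes it was 637 kb, with 7 above. Intervals were counted once per peak. Those of Rpl13-ps3 and Rpl28-ps4 each hold 2 member peaks and so enter repeatedly, and the 627 kb is the repeated interval of Rpl28-ps4. The 12 are therefore not separate intervals. Rps3a1 and Lrba formed the shortest of these intervals and Rpl13-ps3 and Fgf9 the longest.

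Peaks listed none of 53 keratin genes (exact interval 0 to 6.72%) and none of 56 keratin-associated protein genes (0 to 6.38%), beside 12.5% of all protein-coding genes. These counts rest on few places in the genome. The 109 genes fell into 6 stretches without a peak, each bounded by the nearest listed gene on either side, and the intervals above overstate the precision because neighbouring genes share a stretch.

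**Figure D2:**
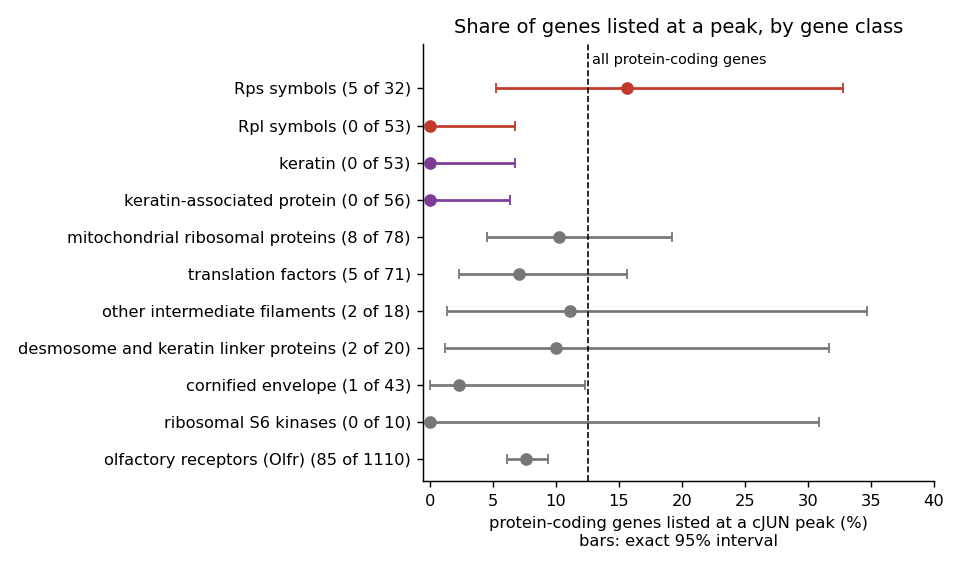
Percentage of protein-coding genes listed at a peak in selected classes, with the number listed and the number of genes in brackets. Rplp genes (0 of 3) and vomeronasal receptor genes (54 of 355, 15.2%) are not drawn. Points are shares, bars are exact 95% intervals that treat genes as independent, and the dashed line is the share of all protein-coding genes, 12.5%. Rpl, keratin and keratin-associated genes are at 0 and Rps genes at 15.6%.

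The type I keratin array, on chromosome 11, was the most gene-dense of them. It holds 27 keratin and 23 keratin-associated genes in a stretch of 2722 kb without a peak. The left boundary was a peak at chromosome 11 from 98479214 to 98479408 (fold 15.99, score 64.23). Its nearer listed gene was Gm12355 at 7.66 kb, and Ormdl3, a regulator of sphingolipid synthesis, was 30.6 kb away. The right boundary was a peak from 101201869 to 101201948 (fold 19.45, score 82.72). It lay 9.99 kb from the amine oxidase gene Aoc3 and 27.0 kb from G6pc, the glucose-6-phosphatase gene. The stretch held 134 protein-coding genes, or 49.2 per Mb, at percentile 99.5 of the 1093 stretches. The gut keratin genes Krt19 and Krt20 lay in it, 53 and 31 protein-coding genes away from the nearest listed gene. Jup, which encodes the desmosome protein plakoglobin, lay in it as well and was not listed.

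The type II array, on chromosome 15, holds 26 keratin genes, including the type I gene Krt18 at its edge. Its peak-free stretch was 2037 kb long with 64 protein-coding genes, or 31.4 per Mb (percentile 95.4). On the left it ended at a peak from 100394326 to 100394475 (fold 13.98, score 56.7), 36.0 kb from the POU factor gene Pou6f1 and 11.96 kb from Tfcp2. On the right it ended at a peak from 102431060 to 102431200 (fold 15.29, score 64.69). Atf7, a gene of the bZIP family to which cJUN belongs, was listed there at distances of both 24.8 and 71.7 kb. Krt8 and Krt18, the main filament pair of simple epithelium, were 24 and 23 protein-coding genes from the nearest listed gene, and Krt7 was 17 away.

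Keratin-associated genes outside chromosome 11 lay mostly on chromosome 16, where 24 of them stood in a stretch of 4507 kb with 94 protein-coding genes (20.9 per Mb). Its left boundary peak, from 88065208 to 88065323, had a fold of 18.42 and a score of 66.72 and lay 8.85 kb from the glutamate receptor gene Grik1 and 442 kb from the claudin gene Cldn17. Its right boundary peak, from 92572747 to 92572904, had a fold of 18.41 and a score of 78.21 and lay 74.4 kb from Clic6 and 253 kb from the blood transcription factor gene Runx1. Cldn17 is separated from the first gene of the array, Krtap24-1, by a single protein-coding gene, so the start of this array was close in gene order to a listed gene. Smaller groups lay on chromosome 7 (5 genes in 2352 kb, between Olfr533 and the insulin gene Ins2), on chromosome 10 (3 genes in 5602 kb, between Gnaz and Fgf22) and on chromosome 1 (Krtap28-13 in 2633 kb, between Nyap2 and Sphkap). The chromosome 7 stretch also held Rplp2, the only ribosomal protein gene that shared a stretch with a keratin-associated gene.

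**Figure D3:**
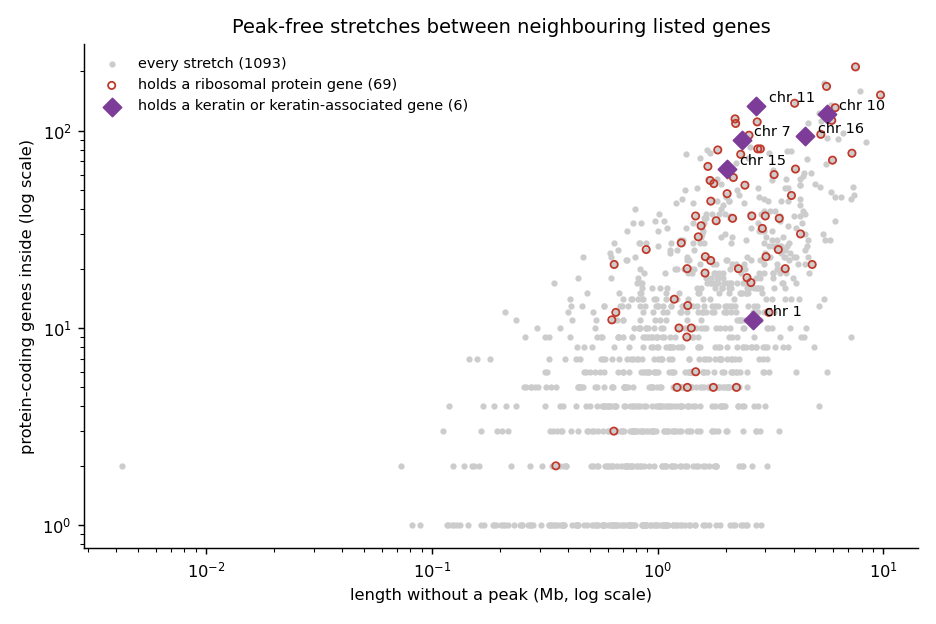
Length of each stretch without a peak (Mb, log scale) against the protein-coding genes inside it (log scale), for 1093 stretches between neighbouring listed genes. Purple diamonds are the 6 stretches with keratin or keratin-associated genes, labelled by chromosome, and red circles the 69 stretches with ribosomal protein genes. The diamonds of chromosomes 11, 7 and 15 lie high for their length at 49.2, 38.3 and 31.4 genes per Mb, and that of chromosome 1 lies low at 4.18.

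Ribosomal protein genes were spread out instead. Of 83 that were not listed, 79 could be placed in a stretch, and they fell into 69 different ones with at most 3 in any of them. Taken per gene, their stretch was 2278 kb long at the median, against 2352 kb for all unlisted protein-coding genes. The density around them was 18.2 genes per Mb at the median, against 14.8. For unlisted keratin genes the median density was 49.2, and for keratin-associated genes 30.0. The 49.2 is the value of the chromosome 11 stretch, which holds 27 of the 53 keratin genes. The 30.0 is the density of no stretch and lies midway between those of chromosomes 10 and 7, 21.8 and 38.3.

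Position in gene order restates the same listings and is no separate result. Its values for the 53 keratin genes come from only 2 stretches. A ribosomal protein gene was 6.5 protein-coding genes from the nearest listed gene at the median, against 6 for all protein-coding genes, with a highest value of 76 at Rpl8, on chromosome 15. Direct neighbours of a listed gene were 11 of the 88 (12.5%), near the 11.0% of all protein-coding genes, among them the large subunit genes Rpl15, Rpl31 and Rpl38 and the small subunit genes Rps9 and Rps10. The median was 29 for keratin genes (16 to 62) and 37 for keratin-associated genes (2 to 67). Of the 5 genes of other kinds on either side of each member, 92 of 824 were listed around ribosomal protein genes (11.2%), 0 of 31 around keratin genes and 4 of 108 around keratin-associated genes. Those 4 were Cldn17, Grik1, Pid1 and Sphkap.

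Gene density and listing were related across whole chromosomes. Over 20 chromosomes (Y, with 1 peak, left out) the share of protein-coding genes listed ran from 5.53% on chromosome 19 to 21.1% on chromosome 18, while density ran from 5.74 to 14.2 genes per Mb. The Spearman correlation of density with the share listed was −0.910, and that of density with peaks per Mb was −0.432. These are descriptions, and since a peak lists only its flanking genes, the share depends on the number of genes by construction. Chromosome 11, with 50 of the 109 keratin and keratin-associated genes, had the highest density, 14.2 genes per Mb, the second lowest share listed, 5.90%, and 0.699 peaks per Mb, in a range of 0.515 to 1.55. Chromosome 7, with 14 ribosomal protein genes, had 13.8 genes per Mb and 8.42% listed. Chromosomes 15 and 16 were not dense as a whole, at 7.85 and 7.22 genes per Mb, with 12.5% and 14.1% listed.

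Weighting each class by the shares of its own chromosomes, 9.14% of genes on the keratin chromosomes were listed, 10.3% on those of the keratin-associated genes and 12.1% on those of the ribosomal protein genes. These correspond to 4.84, 5.79 and 10.7 genes, beside the 0, 0 and 5 listed. The chromosome shares do not take in the density around an array, and the part of that density in the missing listings was not tested.

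**Figure D4:**
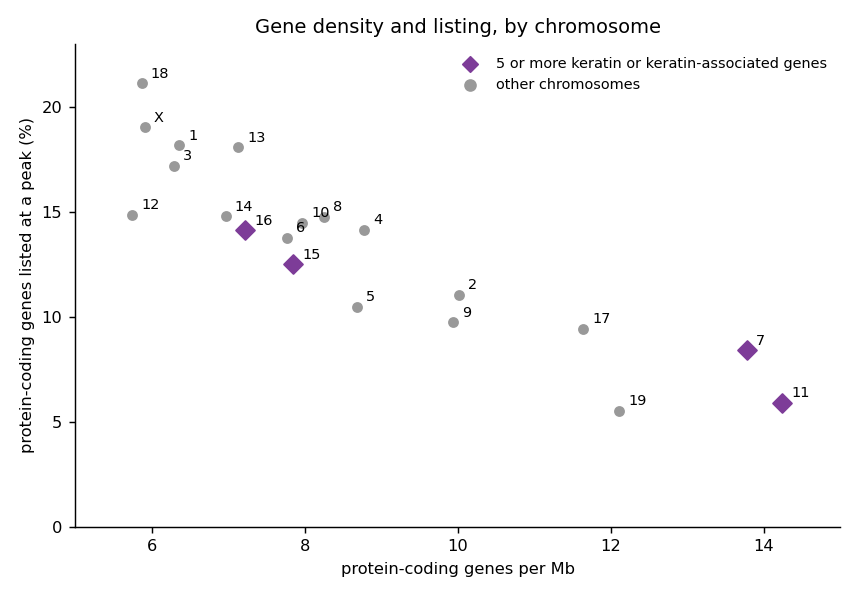
Share of protein-coding genes listed at a peak (%) against protein-coding genes per Mb, 1 point per chromosome, for 20 chromosomes. Purple diamonds are chromosomes with 5 or more keratin or keratin-associated genes. Shares fall from 21.1% on chromosome 18 to 5.90% on chromosome 11 and 5.53% on chromosome 19 as density rises.

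Genes that work with ribosomal proteins and keratins were counted in the same way, each beside the same 12.5%. Mitochondrial ribosomal protein genes, which serve the separate ribosome of that organelle, had 8 of 78 listed (10.3%, 4.53 to 19.2). Mrps31 led them with a score of 87.75 at 32.5 kb, followed by Mrpl1 with 81.29 at 81.7 kb and Mrpl14 with 66.77 at 326 kb, and large and small subunit genes both occurred. Genes with a translation factor symbol had 5 of 71 (7.04%, 2.33 to 15.7). They include Eif4e1b, an oocyte form of the cap-binding protein, 8.91 kb from a peak with a score of 79.54, and Eif2ak1, a kinase that inhibits initiation, 42.4 kb from a peak with 66.8. The highest score, 105.06 at 453 kb with a fold of 5.83, belonged to Eef2kmt, an enzyme that modifies an elongation factor, listed under its older name Fam86. None of 10 ribosomal S6 kinase genes was listed.

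Other intermediate filament genes had 2 of 18 listed (11.1%, 1.38 to 34.7). Vim, the filament gene of mesenchyme, had a score of 73.66 at 90.4 kb, and Nefm, a neurofilament gene, 61.54 at 133 kb. Desmosome and keratin linker genes had 2 of 20, the desmocollin gene Dsc3 at 714 kb with a score of 72.11 and Dst, the gene of a filament linker, at 409 kb with 52.47. Of 43 cornified envelope genes, which also lie in an array and act in skin, Flg2 alone was listed, at 28.1 kb with a score of 57.13 (2.33%, 0.0589 to 12.3). As tandem families for comparison, chosen after their values were seen, 85 of 1110 olfactory receptor genes (7.66%) and 54 of 355 vomeronasal receptor genes (15.2%) were listed. Olfactory and vomeronasal receptor genes stand in arrays too.

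Whether the promoters of these families carry the letters of an AP-1 site was looked up in RefSeq promoter windows of GRCm38.p6, which span 250 bases before to 50 after a start site. The motif was TGANTCA, with N any base, which reads as the same motif on both strands. It was present at 10 of the 51 keratin-associated genes with a window (19.6%, 9.82 to 33.1), where 8.12% of 17492 protein-coding genes with a window had it. Of these 10, 6 had the canonical form TGACTCA on either strand. Windows were found for 36 of 53 keratin genes and 67 of 88 ribosomal protein genes, under the 80% needed, so the shares of those classes are void and only single matches are given, at Krt13, Rpl9 and Rpl22. The 17492 genes behind the 8.12% are 79.9% of all protein-coding genes and also fall short of that limit, so the 19.6% and the 8.12% stand side by side and no difference is read from them. Some of the matches lie in near-identical copies, such as Krtap31-1 and Krtap31-2, and are not separate observations. None of these promoters had a cJUN peak in the list. A match is a run of letters and not a site shown to be bound.

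The windows below show the motif in capitals with 10 bases on either side, 5′ to 3′ on the strand of the gene, for the matches of the stratified epithelium keratin Krt13, for 5 keratin-associated genes and for both large subunit genes. Positions are on GRCm38.p6 and cannot be set against the mm9 peaks.
Krt13 (chr11:100121746-100121772, minus strand): ctgctccctcTGAATCAtcccttttgt
Krt13 (chr11:100120744-100120770, minus strand): ctgttacttgTGACTCAgttgctataa
Krt13 (chr11:100120595-100120621, minus strand): cagtgggcaaTGACTCAgagggtgtaa
Krtap3-2 (chr11:99557023-99557049, minus strand): ggcaggtccaTGAGTCAaaactccaac
Krtap5-4 (chr7:142303463-142303489, plus strand): aatcaggaagTGACTCAtgacacctga
Krtap6-5 (chr16:89048021-89048047, minus strand): gcctctttaaTGACTCAgacatattat
Krtap31-1 (chr11:99907766-99907792, plus strand): tgcttgcaaaTGATTCAgagcactggg
Krtap31-2 (chr11:99936137-99936163, plus strand): tgcttgcaaaTGATTCAgagcattggg
Rpl22 (chr4:152325646-152325672, plus strand): ccagtctcccTGAGTCAttcgcagtgg
Rpl9 (chr5:65391530-65391556, minus strand): actcgtcgctTGAGTCAtgacgcgata
The Krt13 matches come from 2 different start sites of the gene, 1 of them with 2 matches. The Krt13 match nearest to a start site begins 34 bases before it, that of Krtap5-4 29 bases before, and those of Rpl22 and Rpl9 70 and 115 bases before.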

How the data were processed

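The data are 1 deposited list of cJUN peaks from 1 immunoprecipitate and 1 input library. Per the submitters' processing notes, Bowtie 1.1.0, MACS 1.4 and mm9 were used. How reads and peaks were filtered and which program assigned genes is not given in the sources used here, and the depth of the libraries is unknown. Per the file headers, the fold is a deposited ratio over background, and the score is a −log10 p-value of the authors multiplied by 10. Deposited positions and distances are in bp, with no statement on counting from 0 or 1.

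Of 2963 listed names, 2870 (96.9%) matched by symbol or synonym a RefSeq gene table of another build (GRCm38.p6). Only its names, biotypes and gene order were used. Rps19bp1 and Rps23rg1, which are not ribosomal proteins, were left out. For 662 of 673 genes with several peaks, reading a negative distance as upstream of the gene gave 1 start site to within 2 bp, against 5 for the opposite reading. Genes per Mb used gene counts of the table and mm9 lengths between peaks. Stretches were kept where no peak lay between the bounding peaks, and 231 were left out. Intervals are exact Clopper-Pearson 95% intervals (scipy 1.17.1). No test was made. The functions were tested on simulated data. Named genes were every listed member, 5 gut keratins, the genes bounding each keratin array and up to 3 genes per related list. Further genes were named after their values were seen. The members and lists were chosen with earlier results of these data known.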

Additional observations from a re-analysis of the deposited data

How the results depend on the processing

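No paired analysis was possible because there is 1 library per group and no test. The alternatives say nothing on the stability of the 0 for keratin and keratin-associated genes, since all but the one with all biotypes only remove peaks, listings or names, and that one adds 2 keratin genes and no keratin-associated gene. The count of ribosomal protein genes, 5 of 88, was 0 with a score of at least 100, 3 with a score at or above the median, 3 when only the nearest gene was taken, 2 up to 100 kb and 1 up to 50 kb. The count over all protein-coding genes, 2745, fell alongside to 141, 1600, 1666, 1496 and 977. With all biotypes it was 13 of 401 for ribosomal protein names, since pseudogenes are then counted (3.24%), beside 2869 of 49943 genes of all kinds (5.74%). A fold of at least 10, leaving out clustered peaks and official symbols only kept the counts within 1.5 times. The median stretch around the keratin arrays, 2722 kb, was 2537 kb with up to 5 other genes allowed between members and the same under the other alternatives. The motif share in keratin-associated genes was 11.8% (4.44 to 23.9) with TGACTCA only, beside 5.40% of protein-coding genes with a window, and 0 with the cAMP response element, beside 2.54%. The depth of the libraries is unknown, so a weak site below the caller's threshold would not be in the list, and absence from the list is not absence of binding.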

Other observations

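A few names just outside the rule also belong to ribosomal protein pseudogenes. Gm10020, which the gene table calls Rpl15-ps6, lay 6.67 kb from a peak at chromosome 15 from 52303038 to 52303185 (fold 18.42, score 58.82). It was nearer to its peak than any pseudogene that the rule took. Rpsa-ps10 lay 669 kb from a peak on chromosome 3 (fold 18.42, score 70.83). Gm6816, which the table calls Rps4l-ps, lay 844 kb from a peak on chromosome 7 (fold 14.74, score 59.47).

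Long peak-free stretches hold many genes, some ribosomal protein genes among them. Of all 21887 protein-coding genes, 88 are ribosomal protein genes. Per gene, the median stretch of the unlisted ones was 2278 kb, against 2352 kb for all unlisted protein-coding genes, so long stretches are no trait of this class. The longest of the 1093, 9707 kb on chromosome 9 between Cldn18 and Fbxw22, holds 1 of them among 152 protein-coding genes. The stretch with the most protein-coding genes, 211 in 7519 kb on chromosome 15 between Ly6c2 and Cyp2d12, holds 2.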
